A study of Mus musculus with 10 samples.

Results

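The small integrin-binding ligand N-linked glycoproteins (SIBLING proteins) are 5 acidic phosphoproteins of bone and tooth matrix encoded side by side in the mouse genome. Their genes, Spp1, Ibsp, Dmp1, Mepe and Dspp, were taken by name from the 40620 genes of a count table of differentiating MC3T3-E1 cells. All 5 had a row in the table, and 4 of them passed the filter on low counts that left 20808 genes for testing. Mepe passed it through its later stages, since it had almost no reads in subconfluent cells, and Dspp did not pass.

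SIBLING proteins are secreted by osteoblasts, osteocytes and odontoblasts, are phosphorylated by the secretory pathway kinase Fam20c, and bind both hydroxyapatite and cell surface integrins. Bone sialoprotein (Ibsp) is known to nucleate hydroxyapatite, whereas osteopontin (Spp1) and the acidic peptide released from matrix extracellular phosphoglycoprotein (Mepe) restrain crystal growth. Dentin matrix protein (Dmp1) is best known from osteocytes, where it takes part in mineralization and phosphate balance, and Dspp encodes the main phosphoprotein of dentin.

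MC3T3-E1 is a pre-osteoblast line from mouse calvaria, and the cells used were subclone 4, a single clone. RNA was sequenced as 51 bp paired reads from subconfluent and confluent cells in growth medium and from cells kept for 24 h, 14 d and 21 d in osteogenic medium, which added β-glycerophosphate (10 mM) and ascorbic acid (50 µg/ml), with replicates A and B at each of the 5 stages. No culture was kept for 14 d or 21 d without these additions, so time in culture and the additions cannot be told apart. Total counts ran from 44736156 in subconfluent replicate B to 162939333 in confluent replicate B. The labels do not say that A and B came from separate cultures, so p-values measure only the spread between these samples. The 24 h libraries differed most from each other, with an SD of the log2 ratio of A to B of 1.02 across the genes tested, against 0.84 to 0.85 at the other stages. The libraries of the first 3 stages carry other index sequences than those of 14 d and 21 d. Differences between these sets of stages therefore cannot be told apart from a difference between sets of libraries. Within a set, replicate A of confluent cells and of 24 h carry the same index and lane number, as do replicate A of 14 d and of 21 d. Reads with the same index in the same lane could not be separated, so these libraries came from different runs, which the labels do not name. A comparison within a set may thus also hold a difference between runs, which was not tested.

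The 5 genes lie on the plus strand of chromosome 5 (GRCm38) within 270 kb, in the order Dspp, Dmp1, Ibsp, Mepe and Spp1. Dspp (ENSMUSG00000053268) spans 104170712 to 104180127 and has 5 exons. Dmp1 (ENSMUSG00000029307) spans 104202613 to 104214102 with 6 exons, and Ibsp (ENSMUSG00000029306) spans 104299171 to 104311469 with 7. Mepe (ENSMUSG00000053863) spans 104325329 to 104338611 with 3 exons, and Spp1 (ENSMUSG00000029304) spans 104435118 to 104441050 with 6. Of the 5, Spp1 alone shares exon bases with another annotated gene, the predicted transcript Gm42793 on the same strand, which has no row in the count table.

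Ibsp, the crystal nucleator of the family, was the most abundant of the 5 genes from 24 h on. It was at 20.0 and 11.8 RPKM in subconfluent replicates A and B, at 196 and 205 RPKM in confluent cells, and at 959 and 1124 RPKM after 24 h. At 14 d it reached 4081 and 4374 RPKM, and at 21 d it was at 2570 and 2509 RPKM. No stage overlapped another, each of the first 4 stages lay above the one before, and both 21 d libraries lay between those of 24 h and 14 d. Ranked by RPKM among 40602 genes, Ibsp moved from places 5369 and 7447 in subconfluent cells to places 21 and 18 at 14 d. Its log2 fold change was 3.63 (SE 0.25, adjusted p = 0.000896) in confluent against subconfluent cells and 2.46 (SE 0.23, adjusted p = 0.00278) in 24 h against confluent cells. Both comparisons lie within a library set, though not within 1 known run. The second call was lost when only these 4 libraries were fitted, with a log2 fold change of 2.47 and an adjusted p of 0.101, the highest of all alternatives. From 24 h to 14 d the log2 fold change was 2.15 (SE 0.23, adjusted p = 0.0015). The lower level at 21 d than at 14 d, a log2 fold change of -0.81 (SE 0.22, adjusted p = 0.0664), was under 2-fold and did not pass the adjusted p in the main analysis. Under the alternatives it kept its size (-0.88 to -0.72), with adjusted p from 0.00201 to 0.309, and passed under 7 of 21, DESeq2 among them. These are bulk samples, in which more cells with Ibsp RNA and more Ibsp RNA per cell cannot be told apart.

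Dmp1, the gene of the family most tied to osteocytes, was at 1.26 and 1.18 RPKM in subconfluent cells, 0.886 and 0.925 RPKM in confluent cells and 0.688 and 0.593 RPKM at 24 h. It was at 6.12 and 5.53 RPKM at 14 d and at 29.0 and 16.1 RPKM at 21 d. The first 3 stages stepped down without overlap, both later stages lay above all of them, and replicate A at 21 d was well above replicate B. The early steps did not pass the test, with log2 fold changes of -0.46 (SE 0.26, adjusted p = 0.444) and -0.41 (SE 0.26, adjusted p = 0.383). Dmp1 rose in 14 d against 24 h, by a log2 fold change of 3.31 (SE 0.28, adjusted p = 0.000569). Within the later library set it rose again from 14 d to 21 d, by 1.88 (SE 0.26, adjusted p = 0.0044). That second rise missed the threshold without replicate B at 14 d, with a log2 fold change of 1.82 and an adjusted p of 0.0532. Leaving out each library in turn, it ran from 1.40 to 2.23, with adjusted p between 0.00166 and 0.0532.

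Spp1, whose product osteopontin binds integrins and CD44 and slows crystal growth, was the only one of the 5 genes already abundant in subconfluent cells. It stood at 333 and 329 RPKM there, at 235 and 216 RPKM in confluent cells and at 213 and 208 RPKM at 24 h. At 14 d it was at 284 and 283 RPKM, and at 21 d at 1509 and 968 RPKM. The first 4 stages stayed within 208 to 333 RPKM and both 21 d libraries were far above them, again with replicate A the higher. None of the 3 steps up to 14 d passed the test in the main analysis, with log2 fold changes of -0.58 (SE 0.19, adjusted p = 0.171), -0.01 (SE 0.19, adjusted p = 0.988) and 0.56 (SE 0.19, adjusted p = 0.0876). The first and the third, under 2-fold throughout, passed the adjusted p under some alternatives, with ranges of 0.0239 to 0.643 and 0.0262 to 0.285. Spp1 rose from 14 d to 21 d by a log2 fold change of 2.05 (SE 0.20, adjusted p = 0.00103), which is a fold of 4.15 within a library set. In rank by RPKM it moved from places 803 and 782 at 14 d to places 203 and 351 at 21 d.

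Mepe, which carries the mineral-binding peptide that restrains crystal growth, began near the limit of detection, with 9 and 1 reads in subconfluent replicates A and B and 5 and 21 reads in confluent cells. In RPKM it was at 0.0520 and 0.0192 in subconfluent cells, 0.0876 and 0.116 in confluent cells, 0.610 and 0.596 at 24 h, 9.77 and 11.6 at 14 d, and 7.52 and 9.75 at 21 d. The stages up to 14 d were separate from each other, and 14 d and 21 d were close, the nearest libraries being at 9.75 and 9.77 RPKM. Summed over both replicates, the 10 subconfluent reads equal 0.0516 CPM, with an exact Poisson 95% interval of 0.0248 to 0.0949. The 26 confluent reads equal 0.122 CPM, with an interval of 0.0799 to 0.179. The log2 fold change between these stages was 1.27 (SE 0.37, adjusted p = 0.147). It did not pass the test under any of the 19 alternatives run for it. Over these it ran from 0.089, with limma on log2(RPKM + 1), to 2.37, and on leaving out libraries from 0.97 to 2.37. Intervals and detection limits here cover counting error only. Mepe rose in 24 h against confluent cells by a log2 fold change of 2.59 (SE 0.29, adjusted p = 0.00506) and in 14 d against 24 h by 4.27 (SE 0.28, adjusted p = 0.000186). The first of these calls was lost without confluent replicate A (2.46), without confluent replicate B (2.86), with only these 2 stages fitted (2.62, adjusted p = 0.216, the highest of all alternatives) and with limma on log2(RPKM + 1) (0.54). Without 24 h replicate A or B the log2 fold change of Mepe in 24 h against confluent cells was 2.51 or 2.67. From 14 d to 21 d its log2 fold change was -0.38 (SE 0.24, adjusted p = 0.411).

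Dspp, the dentin gene, had 1 read in all 10 libraries together, in replicate B at 24 h, out of 1015103989 counted reads. A library with 0 reads allows up to 3, which is 0.0184 CPM in the deepest library and 0.0671 CPM in the shallowest. Dspp thus had at most 1 read in any library at this depth, while its neighbour Dmp1 had between 83 and 3548 reads per library. Of 5 tooth cell markers, Ambn, Enam and Mmp20 had 0 RPKM in every library, and the highest value of Amelx was 0.0306 RPKM.

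**Figure D1:**
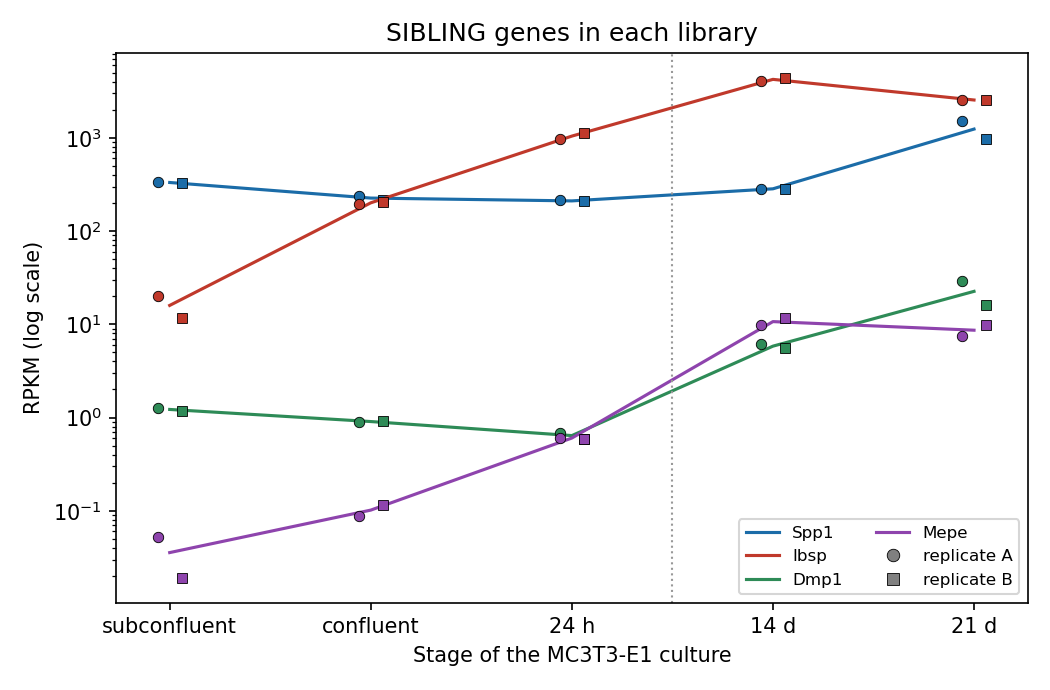
RPKM on a log axis for Spp1, Ibsp, Dmp1 and Mepe at 5 stages of MC3T3-E1 culture, with replicate A as circles, replicate B as squares and lines through the means of the 2 replicates; the dotted line separates the sets of libraries with different index sequences. Ibsp climbs from 15.9 to 4228 RPKM by 14 d, whereas Spp1 stays within 208 to 333 RPKM until 14 d and reaches a mean of 1239 RPKM at 21 d.

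The 6 comparisons can be read against the share of all tested genes that were called at an adjusted p under 0.05 and more than 2-fold. In confluent against subconfluent cells 1 of the 4 tested genes, Ibsp, was called higher and 0 lower, where 1.004% of all genes were called higher and 0.423% lower. In 24 h against confluent cells Ibsp and Mepe were called higher, 2 of 4, against 1.76% of all genes higher and 0.365% lower. In 14 d against 24 h Ibsp, Dmp1 and Mepe were called higher, 3 of 4, against 4.47% higher and 1.51% lower. In 21 d against 14 d Spp1 and Dmp1 were called higher, 2 of 4, against 1.52% higher and 2.45% lower. By edgeR 0 of the 24 tests were called lower, by DESeq2 likewise 0, and 2 had an unadjusted p under 0.05 with a lower level, both under 2-fold. Of the first 4 comparisons, 14 d against 24 h crosses the library sets, as do the other 2, which use the 21 d libraries again. In 21 d against confluent cells the 4 tested genes were all called higher, where 12.7% of all genes were called higher and 8.42% lower. Their log2 fold changes were 6.48 for Mepe (SE 0.32, adjusted p = 1.46e-05), 4.77 for Dmp1 (SE 0.29, adjusted p = 3.06e-05), 3.81 for Ibsp (SE 0.25, adjusted p = 3.59e-05) and 2.60 for Spp1 (SE 0.20, adjusted p = 7.15e-05). Against subconfluent cells, the 4 were again called higher at 21 d, where 16.3% of all genes were called higher and 11.3% lower. Mepe passed the filter through its later stages, so its call there is set against almost no reads and does not count as support. The log2 fold changes there were 7.75 for Mepe, 7.43 for Ibsp, 4.32 for Dmp1 and 2.02 for Spp1. The value of Mepe, which had 10 subconfluent reads, ran from 3.21 to 8.82 under the alternatives. That of Ibsp ran from 7.06 to 7.85, so the order of these 2 genes depends on the setting. The F test for any difference among the 5 stages passed an adjusted p under 0.05 for the same 4 genes, where 48.9% of all genes passed. Scaled by library size alone, the median of all genes in 21 d against confluent cells moved to -0.11 on the log2 scale, and 49.7% of calls were higher instead of 60.1%. For 21 d against subconfluent cells that share was 48.9% instead of 59.1%, and in 24 h against confluent cells 71.7% instead of 82.8%. Without 24 h replicate B it was 42.5% in 24 h against confluent cells, so the majority of calls turned from higher to lower with 1 library, and with limma on log2(RPKM + 1) it was 36.6% in 21 d against confluent cells. The calls of the family members were the same with library size as the sole scaling.

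Levels of the family members were compared with each other per length, as mean RPKM. In subconfluent cells the order was Spp1 (331 ± 2.69 RPKM, SD, n = 2), Ibsp (15.9 ± 5.81), Dmp1 (1.22 ± 0.0534) and Mepe (0.0356 ± 0.0232). Confluent cells had the same order, but Spp1 (225 ± 12.7) and Ibsp (201 ± 5.88) were now close, their nearest replicates being at 216 and 205 RPKM. By CPM, which takes no account of length, Ibsp came before Spp1 at this stage, and the order of the means at the other 4 stages was the same on both scales. At 14 d, however, Dmp1 and Mepe overlapped by CPM, with 1516 reads of Dmp1 and 1477 of Mepe in replicate A and 503 and 642 in replicate B. At 24 h Ibsp (1042 ± 116) led Spp1 (210 ± 3.17), and Dmp1 (0.640 ± 0.0671) and Mepe (0.603 ± 0.00991) overlapped and could not be ordered. At 14 d the order was Ibsp (4228 ± 207), Spp1 (283 ± 1.20), Mepe (10.7 ± 1.28) and Dmp1 (5.83 ± 0.411). At 21 d it was Ibsp (2540 ± 42.8), Spp1 (1239 ± 382), Dmp1 (22.5 ± 9.09) and Mepe (8.64 ± 1.58). Dspp was last at every stage.

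Together the 5 genes held 0.0337% and 0.0319% of all summed RPKM in subconfluent replicates A and B, 0.0389% and 0.0347% in confluent cells and 0.0751% and 0.117% at 24 h. At 14 d they held 0.347% and 0.376%, and at 21 d 0.321% and 0.265%. The later stages lay above the early ones in both replicates, and 21 d lay below 14 d without overlap. Within the family, Spp1 made up 94.0% and 96.2% of the summed RPKM in subconfluent cells, against 6.49% and 6.05% at 14 d. Ibsp took the reverse course, from 5.65% and 3.45% to 93.2% and 93.6%. At 21 d Spp1 was back at 36.7% and 27.6% of the family and Ibsp at 62.5% and 71.6%.

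Ratios within a library do not depend on how libraries are scaled to each other. The ratio of Ibsp to Spp1 RPKM was 0.0601 and 0.0359 in subconfluent cells, 0.837 and 0.946 in confluent cells, 4.51 and 5.40 at 24 h, 14.4 and 15.5 at 14 d, and 1.70 and 2.59 at 21 d. Each stage through 14 d lay above the one before without overlap, and 21 d lay below 24 h. Mepe and Dmp1, the less abundant pair, gave ratios of Mepe to Dmp1 of 0.0414 and 0.0162, 0.0988 and 0.125, 0.886 and 1.004, 1.60 and 2.09, and 0.260 and 0.606 over the same stages. That ratio too was highest at 14 d and lower at 21 d in both replicates. From 14 d to 21 d the log2 change was -2.83 for Ibsp to Spp1 and -2.21 for Mepe to Dmp1. With 2 libraries against 2, an exact two-sided permutation test cannot go below p = 0.333, the value that both ratios gave for that step.

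**Figure D2:**
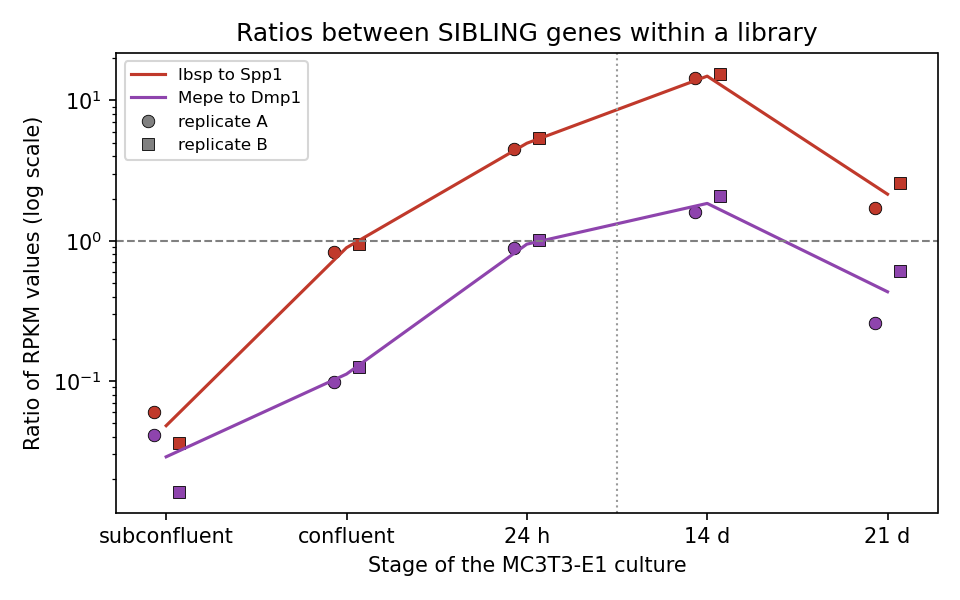
Ratios of RPKM values within each library on a log axis, Ibsp to Spp1 and Mepe to Dmp1, at 5 stages, with replicate A as circles, replicate B as squares, lines through the means and a dashed line at a ratio of 1; the dotted line separates the library sets. Both ratios peak at 14 d, at means of 14.9 and 1.85, and are lower in both libraries at 21 d, at means of 2.15 and 0.433.

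Replicates A and B at 21 d differed by more for Spp1 and Dmp1 than for Ibsp and Mepe, as the RPKM values above show. Replicate B at 21 d was sequenced in 2 lanes, which gave 967 and 1062 RPKM for Spp1 and 16.2 and 15.8 RPKM for Dmp1. Both lanes stayed below the 1509 and 29.0 RPKM of replicate A. The lanes of replicate A at 14 d gave 281 and 290 RPKM for Spp1 and 4078 and 4069 RPKM for Ibsp. For Mepe the lanes gave 9.86 and 9.39 RPKM in replicate A at 14 d and 9.80 and 10.2 RPKM in replicate B at 21 d, so these 2 libraries overlapped by lane. Without replicate A at 21 d the log2 fold change of Spp1 in 21 d against 14 d was 1.70 and that of Dmp1 was 1.40. That fit has 1 library at 21 d, so its spread comes from the other stages.

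The genes with a course most like that of each family member were sought among 15095 others with a mean of at least 1 CPM, by the root mean square difference of centred log2 CPM over the 10 samples. Closest to Spp1 were Cyb5r1 (0.203), Akna, Hmga1, Apobr and Igfbp6 (0.314). Closest to Ibsp were Adgrd1 and Agt (both 0.551), Ncf1, Slc6a4 and Ifitm5 (0.662), the last encoding an osteoblast membrane protein. Closest to Dmp1 were Plxdc1 (0.402), Sh3tc2, Egln3, Hsd11b1 and Nebl (0.632), and closest to Mepe were Cnmd (0.257), which encodes chondromodulin, Ptgis, Fam180a, Slc36a2 and Ngef (0.519). No family member was among the 5 nearest genes of another. Mepe was the 40th nearest gene to Ibsp, at a difference of 1.17, and Ibsp the 68th nearest to Mepe. Spp1 was the 188th nearest gene to Dmp1, at 1.19, whereas Dmp1 was at place 11427 from Spp1. Spp1 and Ibsp were 2.83 apart. On log2(RPKM + 1) the nearest 5 kept 2 genes for Spp1, 2 for Ibsp and 0 for Dmp1 and Mepe.

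Another 19 genes of the count table lie within 500 kb of the cluster, and 13 of them were tested. In 21 d against confluent cells, where the 4 tested family members had log2 fold changes of 2.60 to 6.48, those of the 13 neighbours ran from -0.01 to 1.60. Of the 13 neighbours 2 were called, both higher, where 12.7% of all genes were called higher and 8.42% lower. This count does not set the neighbours apart from other genes. Hsd17b11, a lipid droplet dehydrogenase, was called at 1.31 (SE 0.10, adjusted p = 5.93e-05), and Sparcl1, the SPARC-like matricellular gene near Dspp, at 1.02 (SE 0.11, adjusted p = 0.000272), a call at the edge of 2-fold that was lost under 10 alternatives with log2 fold changes of at least 0.86, adjusted p staying under 0.05. Pkd2, the neighbour on the other side next to Spp1, stayed under 2-fold (0.63, SE 0.20, adjusted p = 0.0381). Between 14 d and 21 d 0 of the 13 were called by edgeR and 0 by DESeq2, and 5 had an unadjusted p under 0.05, all higher and under 2-fold. With 1.52% of all genes called higher and 2.45% lower there, 0 of 13 does not set the neighbours apart from other genes.

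**Figure D3:**
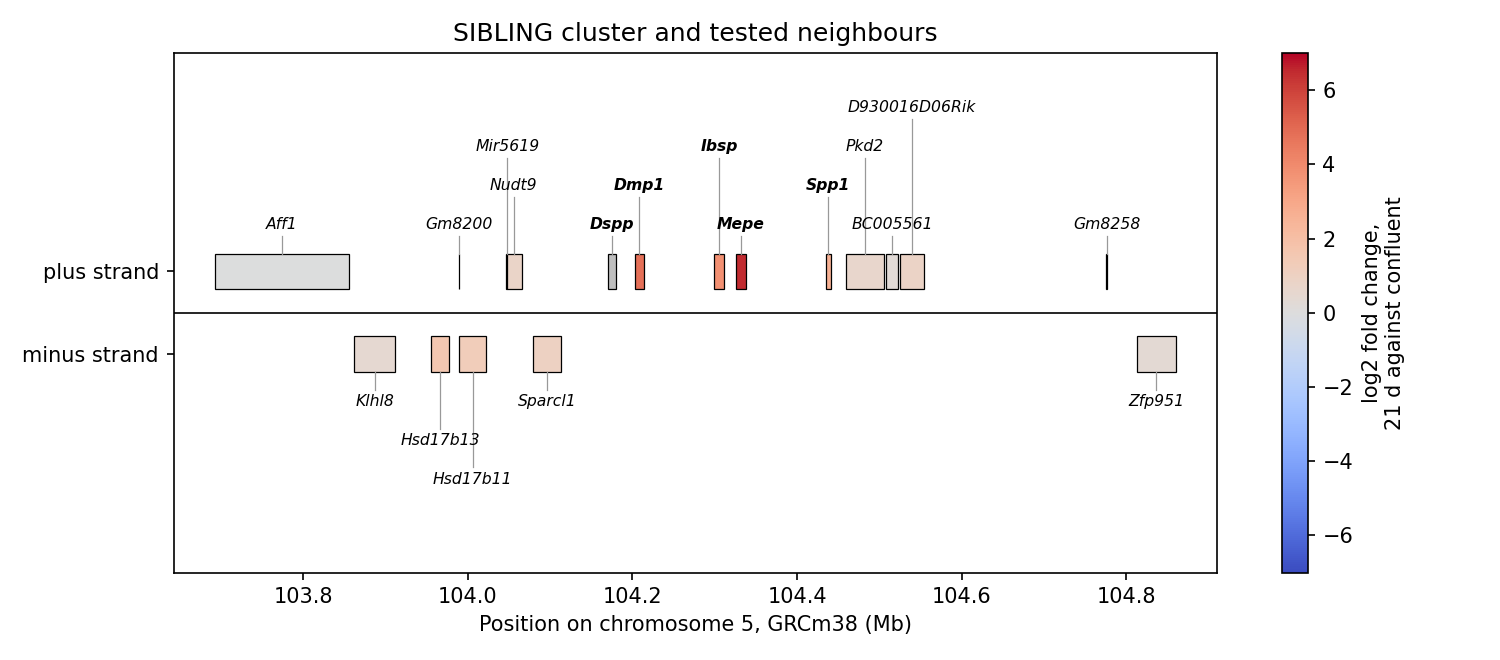
Map to scale of chromosome 5 (GRCm38, position in Mb) around the cluster, with SIBLING genes in bold and the tested neighbours on their strands, coloured by log2 fold change in 21 d against confluent cells; Dspp, which was not tested, is grey. Mepe (6.48), Dmp1 (4.77), Ibsp (3.81) and Spp1 (2.60) are the strongest colours, and the neighbours lie between -0.01 and 1.60.

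RefSeq promoters of GRCm38.p6, each from 250 bases before to 50 bases after a gene start, were listed for 4 of the 5 genes and not for Dspp. Spp1 and Dmp1 had 2 starts each, and the start nearest the GENCODE gene start is described. The stretches before the starts of Dmp1, Mepe and Spp1 are shown because these genes were all called higher at 21 d than in confluent cells. Ibsp, which lies between Dmp1 and Mepe, was called higher as well but is left out for the reason given below. In all, 6 short motifs, chosen after the sequences were seen, were searched on both strands. They were the CCAAT box, the RUNX core (letters ACCACA), the TATA box (letters TATAAA) and a TATA-like box (letters TTTAAA), with the homeodomain core and the site of the factor AP-1 besides. Matches of the first 4 that lie wholly within the stretch shown are in capitals.
Dmp1 (chr5:104202447-104202616, plus strand): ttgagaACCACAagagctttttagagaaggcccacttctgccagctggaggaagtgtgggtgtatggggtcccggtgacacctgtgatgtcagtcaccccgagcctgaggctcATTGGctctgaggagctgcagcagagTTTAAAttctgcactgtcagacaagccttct
Mepe (chr5:104325159-104325328, plus strand): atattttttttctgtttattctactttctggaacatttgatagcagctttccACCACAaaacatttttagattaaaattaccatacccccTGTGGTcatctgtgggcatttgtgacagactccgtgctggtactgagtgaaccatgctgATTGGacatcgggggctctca
Spp1 (chr5:104434941-104435110, plus strand): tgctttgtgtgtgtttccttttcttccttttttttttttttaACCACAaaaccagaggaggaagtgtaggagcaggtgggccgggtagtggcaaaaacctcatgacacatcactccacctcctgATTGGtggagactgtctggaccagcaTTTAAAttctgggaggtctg
Each of these promoters held the CCAAT box on the minus strand, which reads ATTGG, beginning 57 bases before the start of Dmp1, 21 before that of Mepe and 46 before that of Spp1. Each held the RUNX core on the plus strand, beginning 164, 118 and 128 bases before the start in the same order, and Mepe held it on the minus strand at 80 as well. The TATA-like box began 31 bases before the start of Dmp1, 20 before that of Spp1 and at base 6 of the Mepe transcript. The TATA box itself began 173 bases before the start of Mepe, on the minus strand, and 211 before that of Spp1, and the homeodomain core 208 before that of Mepe. At the other starts of Dmp1 and Spp1, the first had only the CCAAT box, 101 bases before, and the second, whose stretch lies in a GENCODE exon, only the homeodomain core. Beyond these, neither the homeodomain core nor the AP-1 site matched in the promoters described. The Ibsp stretch is not printed, since 116 bases before its RefSeq start lie in a GENCODE exon. It held the CCAAT box on the minus strand 54 bases before the start, the TATA box on the minus strand at 28, and no RUNX core. Among 32851 promoters of the same length, 37.4% held the CCAAT box on either strand, 16.8% the RUNX core, 13.2% the TATA-like box, 13.6% the TATA box, 5.29% the homeodomain core and 7.81% the AP-1 site, and 9.27% held the CCAAT box together with the TATA or TATA-like box. A match describes letters in the window and does not show binding.

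Genes that process or bind SIBLING proteins were taken from lists, as were transcription factors, relatives of the family and other genes of mineralizing matrix. The lists are described by counts and medians in 21 d against confluent cells. In that comparison all genes tested had a median of 0.03 on the log2 scale, and 12.7% were called higher and 8.42% lower. The calls of the 5 lists stand beside these shares and were not tested against them. Of 19 genes for processing and modification 13 were tested, and 2 were called higher and 0 lower, with a median of 0.81. The called genes were Phex (3.28, SE 0.24, adjusted p = 6.12e-05), the endopeptidase that cleaves the peptide of Mepe and osteopontin, and the transglutaminase F13a1 (3.63, SE 0.15, adjusted p = 9.44e-06). Fam20c, which phosphorylates the family, went from 11.9 and 12.1 to 22.4 and 19.0 RPKM, a log2 fold change of 0.93 that passed the adjusted p but not 2-fold, though it was called at 1.04 without 21 d replicate B. In 14 d against 24 h 4 of the 13 were called higher, where 4.47% of all genes were, among them Phex at 4.41 (SE 0.25, adjusted p = 0.000119), beside 4.27 for Mepe.

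Of 11 receptors and binding partners 9 were tested, and 3 were called higher and 1 lower, with a median of 0.23. Among them the integrin subunits Itgb3 (1.08) and Itga8 (1.17) were called higher and Itga9 (-1.39) lower. The call of Itga8 was lost without either confluent replicate (1.18 and 1.13) and with limma on log2(RPKM + 1) (0.88). That of Itgb3 was lost with library size alone (0.93) and with limma on log2(RPKM + 1) (0.73) and log2(RPKM + 0.1) (0.91), and that of Itga9 with limma on log2(RPKM + 1) (-0.92). The osteopontin receptor genes Itgav (-0.74, adjusted p = 0.122) and Cd44 (-0.32, adjusted p = 0.0362) were not called.

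All 18 transcription factors of bone matrix genes were tested, with 2 called higher, 3 lower and a median of -0.15. Dlx3 (2.93) and Tcf7 (1.30) rose, and Twist2 (-2.07) and Msx2 (-1.64) showed the largest falls, the call of Twist2 being lost with limma on log2(RPKM + 1) (-0.91). Runx2 (0.46, adjusted p = 0.0341) and Sp7 (0.54, adjusted p = 0.00199) did not reach 2-fold. Among SPARC and the other secretory calcium-binding phosphoproteins, the relatives of the family, Sparc (1.22) and Sparcl1 (1.02) were called higher, a median of 1.12 for the 2 of 7 genes tested, and Ambn, Enam, Amtn and Odam had 0 RPKM in every library. Of 11 genes of mineralizing matrix, all tested, 3 were called higher and 0 lower, with a median of 0.41. Bglap2 (6.53) and Bglap (6.27), the osteocalcin genes, rose most, and they are near-identical copies whose reads the counting may split. Col1a1 was not called (-0.14, adjusted p = 0.62). In 21 d against 14 d, where Spp1 and Dmp1 rose, 0 of the 53 genes tested in these 5 lists were called higher by edgeR and 1 by DESeq2, while 11 had an unadjusted p under 0.05 with a higher level, 1 of them over 2-fold. In the order of the lists, 1, 0, 1, 0 and 3 were called lower, 5 in all by either tool, and 18 had an unadjusted p under 0.05 with a lower level. Of all genes, 1.52% were called higher and 2.45% lower in this comparison.

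Cell type markers were read beside the family, since other cells also make SIBLING RNA. All 8 osteoblast markers were above 1 RPKM in some library, and their summed RPKM ran from 6544 to 19780, highest in the 14 d libraries (19780 and 17560), with Col1a1 the most abundant. Of 4 osteocyte markers, Sost and Fgf23 stayed at or below 0.0121 and 0.0138 RPKM in every library. Phex, also of this list, was at 0.156 and 0.242 RPKM at 24 h, 3.94 and 3.79 at 14 d, and 2.04 and 2.36 at 21 d, and was 1 of the 2 osteocyte markers tested, called higher as above. The list summed to between 29.6 and 36.4 RPKM, nearly all from Pdpn.

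Macrophages and osteoclasts are known sources of osteopontin. Of their 13 markers 5 reached 1 RPKM in some library, while Ptprc, Calcr and Dcstamp were at 0 in every library and Adgre1 was at 0 in all but replicate B at 14 d (0.00942 RPKM). The summed level was 95.0 and 96.9 RPKM in subconfluent cells, 121 and 306 in confluent cells, 167 and 146 at 24 h, 156 and 366 at 14 d, and 459 and 189 at 21 d. Ctsk was the most abundant on average, and the uneven replicates came from Tyrobp, at 179 RPKM in confluent replicate B, 214 in 14 d replicate B and 256 in 21 d replicate A, and at or below 0.842 RPKM in the other 7. In these pairs Spp1 was at 235 and 216 RPKM, 284 and 283 RPKM, and 1509 and 968 RPKM. The part of such cells in the Spp1 levels was not tested. Without Tyrobp the list summed to 202 and 188 RPKM at 21 d.

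Hypertrophic chondrocytes also express Ibsp and Spp1. Of 8 chondrocyte markers 5 reached 1 RPKM in some library, and their sum was 184 and 181 RPKM in subconfluent cells, 106 and 97.5 in confluent cells, 53.1 and 71.7 at 24 h, 246 and 256 at 14 d, and 120 and 131 at 21 d. Col2a1 was the most abundant, and Acan and Matn1 stayed at or below 0.0207 and 0.0287 RPKM. Of the 6 tested, Sox9 (1.35) and Col10a1 (5.56) were called higher in 21 d against confluent cells, where 12.7% of all genes were. Matn3 (-4.49) was called lower, where 8.42% of all genes were. Col9a1 also had a call as higher, with 0 RPKM in confluent cells and 0.125 and 0.129 RPKM at 21 d. It passed the filter through its later stages, so its call is set against 0 and its fold is not printed. Under the alternatives 1 to 5 were called higher, with 5 without 21 d replicate A and 1 with 10 counts required per sample. Col10a1, the collagen of hypertrophic cartilage, was at 1.67 and 5.88 RPKM at 21 d and at or below 0.212 RPKM before, with the higher value in replicate B. The part of these cells in the SIBLING changes was not tested. The 6 adipocyte markers summed to at most 1.13 RPKM.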

How the data were processed

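RNA-seq of 10 MC3T3-E1 samples was analysed from the tables that the authors deposited. The counts are whole reads per Ensembl gene, deposited without normalization, and the RPKM values were scaled by the authors to kilobases of gene and to a read number lower than the total of the counts. The submitters' processing notes name TopHat2 2.0.9, R 3.0.1 and mm10, and the counting tool and its use of strand are not given in the sources used here. Merged columns were used for libraries run in 2 lanes. Symbols and coordinates came from GENCODE vM21 for 39547 of 40620 identifiers, and promoters from RefSeq.

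A single edgeR 4.0.16 model covered the 10 samples (R 4.3.3, filterByExpr, TMM, quasi-likelihood test, Benjamini-Hochberg adjustment over 20808 genes), with SE as the log2 fold change over the square root of F. The pipeline was tested on simulated data. Named list genes came from the largest 2 rises and 2 falls called in 21 d against confluent cells and 9 fixed genes; others named for 0 or marker values are members of those lists. The members and lists were chosen with earlier results of these data known. Alternatives used DESeq2 1.42.0 and limma 3.58.1, other scalings, filters and sample sets. Where 1 library was left out, its stage had 1 sample and the spread came from the other stages.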

Additional observations from a re-analysis of the deposited data

How the results depend on the processing

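The 24 log2 fold changes of the SIBLING genes were recomputed 489 times under 21 alternatives, and 479 kept their sign and their side of the threshold. Mepe could not be tested where every sample needed 10 counts. It also has no value in confluent against subconfluent cells with only these 2 stages fitted. The exceptions were in 24 h against confluent cells and in 21 d against 14 d. For Spp1 in 24 h against confluent cells, near 0 throughout, the sign turned with no filter (0.0030), with 10 counts required per sample (0.00066) and on leaving out single libraries (-0.0768 to 0.0762, positive at 0.0471 without confluent replicate A and at 0.0762 without 24 h replicate B). In that comparison Ibsp was no longer called with only the 2 stages fitted (2.47; 2.42 to 2.53 on leaving out libraries), nor was Mepe with those stages alone (2.62), with limma on log2(RPKM + 1) (0.54), or without either confluent replicate (2.46 to 2.86 over all libraries left out). The 2 calls of the family there became 1 with limma on log2(RPKM + 1) or with 10 counts required per sample, 0 with only the 2 stages, where 0 genes were called at all, and 1 to 2 on leaving out libraries. Dmp1 in 21 d against 14 d ran from 1.40 to 2.23 on leaving out libraries and was lost without 14 d replicate B, so 1 or 2 genes were called there. The cause of these changes was not tested. With the replicate block no call of a SIBLING gene changed, and Spp1 in 21 d against 14 d was 2.03. The letters were not taken as pairs, since the differences of A and B correlated between -0.18 and 0.10 across genes for pairs of stages.

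Over all genes, calls ranged under the alternatives from 77 to 331 higher and 21 to 164 lower in confluent against subconfluent cells (main 209 and 88), from 0 to 1016 and 0 to 1372 in 24 h against confluent (367 and 76), both highest without 24 h replicate B, where most calls were lower, from 265 to 2187 and 54 to 868 in 14 d against 24 h (930 and 315), from 168 to 518 and 315 to 604 in 21 d against 14 d (317 and 509), from 930 to 2854 and 1385 to 2261 in 21 d against confluent (2633 and 1751), and from 1352 to 3584 and 1839 to 2951 in 21 d against subconfluent (3394 and 2346). Of 419 recomputed values for 20 list genes in 21 d against confluent cells, 18 lost and 1 gained the call and 0 reversed. Few reads limit Mepe before 24 h.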
